A study of Homo sapiens with 39 samples.

Results

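The comparison set U87-MG cells 6 days after 16Gy directly against the same cells 6 days after 8Gy. Its aim was to separate genes that went on changing with dose from genes that changed little beyond 8Gy. The 3 samples titled 16Gy_d6 and the 3 titled 8Gy_d6 were taken by their labels, 6 of the 39 samples in the series, and the 3 samples of 0Gy on day 6 gave the first dose step. Expression was read for 20041 genes, each by its brightest probe, and 11296 of them lay above background and were tested. U87-MG is an established human glioblastoma cell line grown as an adherent monolayer.

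Each group came from the same line and the same serum-containing medium, and differed in dose. The 16Gy and 8Gy groups received 1 acute exposure from a Cs-137 source at 0.48Gy per minute, and the 0Gy group was sham irradiated in parallel. Cells were plated the night before exposure and harvested on day 6. The study asked how the cells that outlive a high dose differ from those never irradiated, on days 1, 4, 6 and 35. In each group the sample numbered 1 is the authors' mean of 2 technical runs. The methods call the numbered samples independent replicates, and the labels do not say whether separate cultures were grown for each. The p-values of day 6 therefore measure the spread between numbered samples, pooled over the 27 of days 1, 4 and 6. The model is 1 cell line in culture, without the stroma, vessels and leukocytes of a tumour.

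A single large dose of gamma rays breaks both DNA strands, arrests the cell cycle through p53 and its targets, and leaves many solid tumour cells alive but unable to divide. Such arrested cells commonly release interleukins, chemokines, growth factors and matrix proteases, a programme driven largely by NF-kB, C/EBP and AP-1 transcription factors and sustained by IL-1 acting on the cells that make it. A dose series can separate genes that answer to the presence of damage from genes whose level keeps following its amount.

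The labelled cell type was checked against markers chosen with earlier results of these data known. Of 11 markers of glioma and mesenchymal culture 9 were above background in all 9 samples of day 6. VIM and CD44, which mesenchymal glioma cells express strongly, were among the brightest, with mean log2 signals of 14.20 and 13.45 at 16Gy. NES and OLIG2 were dim, with 7.48 and 7.52 at 16Gy. GFAP, the filament protein of astrocytes, was below background in all 9 samples, and SOX2 was above it in only 2 of the 9. Of 11 leukocyte markers 4 were above background in all 9 samples, CD68, HLA-DRA, CSF1R and CD14, with means of 12.11, 11.55, 8.14 and 7.54 at 16Gy, while the defining gene PTPRC was below it in all 9. Of 7 neuronal markers 3 were above background in all 9, SNAP25, GAD1 and TUBB3, and RBFOX3 was below it in all 9. None of 8 endothelial and none of 8 epithelial markers was above background in all 9, and CDH5, KDR, CLDN5, CDH1 and KRT5 were below it in all 9. The part of these markers in the results was not tested. The mean level of the leukocyte markers was 7.84 to 7.90 at 8Gy and 7.83 to 7.87 at 16Gy, that of the neuronal markers 7.76 to 8.05 and 7.87 to 7.99, and that of the endothelial markers 6.59 to 6.69 and 6.61 to 6.64. In the 9 samples of day 6, 17575 to 20290 probes were above background, which lay between 6.78 and 6.85 on the log2 scale.

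One sample stood apart in the results. Of the genes called higher at 16Gy, 28 of 34 had their lowest 8Gy signal in replicate 3 (82.4%), which was the lowest of the 3 for 37.7% of all genes tested. Of the genes called lower, 9 of 11 had their highest 8Gy signal in that replicate (81.8%, against 31.1% of all genes tested). Values per sample are therefore given for the genes the results turn on, and the counts over all genes are repeated without it.

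From 8Gy to 16Gy on day 6, 45 of 11296 genes changed (0.398%), called in limma where the adjusted p was below 0.10 and the change exceeded 1.5-fold. Of these, 34 were higher at 16Gy (0.301%) and 11 lower (0.0974%). The first step was larger, with 365 genes changed from 0Gy to 8Gy (3.23%), 230 higher (2.04%) and 135 lower (1.2%), and from 0Gy to 16Gy 888 changed (7.86%), 462 higher (4.09%) and 426 lower (3.77%). The median difference between 16Gy and 8Gy over all genes tested was close to 0 at -0.0015 log2, with a median standard error of 0.134. At an unadjusted p under 0.05, 1367 genes differed. Ranges of the 3 samples at 16Gy and the 3 at 8Gy did not overlap for 1926 genes (17.1%), and among the 45 genes called the ranges of MARCKSL1 and MAFF overlapped. An exact permutation test of 3 samples against 3 cannot give a p below 0.10, so single genes rest on the fit across all genes.

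The 365 genes changed at 8Gy divided into 3 kinds, and no gene changed at 8Gy was called in the opposite direction between 8Gy and 16Gy. The comparisons of 8Gy with 0Gy and of 16Gy with 8Gy share the 8Gy samples, so an error in that group moves the 2 steps in opposite directions. A first kind, 24 genes, changed further in the same direction, 23 upwards and 1, TOX2, downwards. Another 172 genes (1.52% of those tested) were called saturated, meaning that the 95% interval of the second step lay within 1.5-fold in either direction, 85 after a rise (0.752%) and 87 after a fall (0.77%). This margin is not scaled to the first step, so a saturated gene may still have changed further within it. ACACA, for example, had steps of -0.69 and -0.31. The remaining 169 genes were neither, since their intervals were too wide, 122 after a rise and 47 after a fall. The 23 genes that rose further had a median first step of 1.06 log2 and a median second step of 0.79. On the log2 scale a median of 42.6% of their rise came after 8Gy, among genes chosen for exceeding 1.5-fold in both steps. For genes below background at 0Gy, such as MMP12, the first step can be understated. The saturated rises had medians of 0.77 and 0.05, and the saturated falls of -0.66 and -0.06. A further 21 genes were called in the second step and not in the first, and 538 between 16Gy and 0Gy but in neither step alone. Of the log2 change of these 538, a median of 45.8% came after 8Gy, both among the 236 higher and among the 302 lower.

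**Figure D1:**
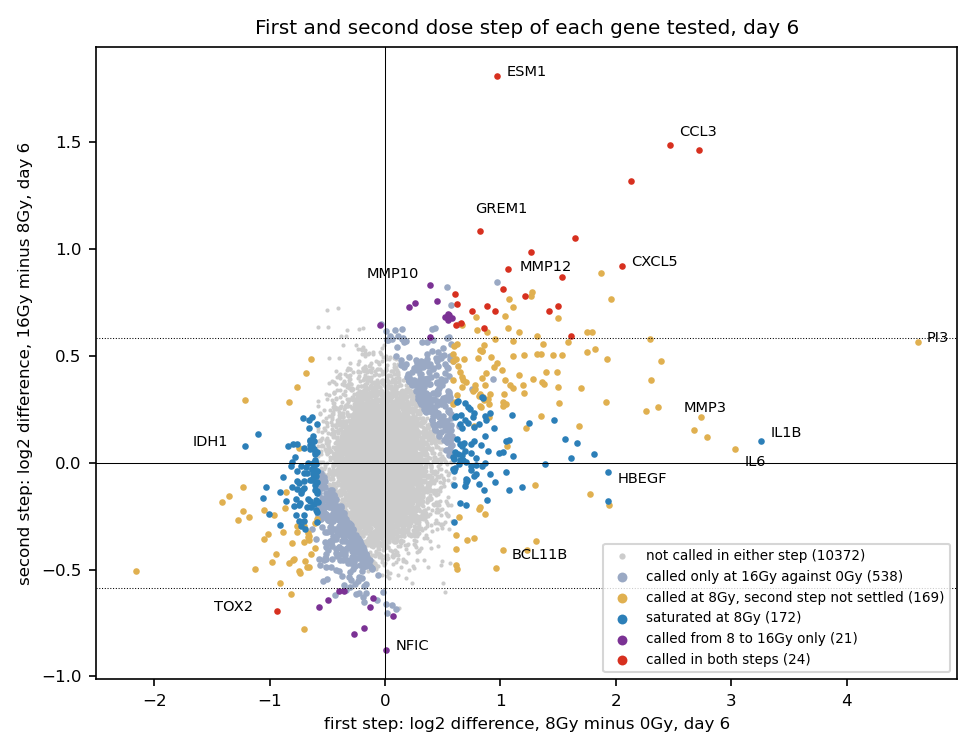
Log2 difference of the first step (8Gy minus 0Gy, horizontal) and of the second step (16Gy minus 8Gy, vertical) on day 6 for each of the 11296 genes tested, coloured by class, with dotted lines at a fold change of 1.5. The 24 genes called in both steps lie above the upper line except TOX2, while IL1B, IL6 and MMP3 lie far to the right and near 0 on the vertical axis.

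The counts rest on single samples. Leaving out 8Gy replicate 3 gave 4 genes called between the doses, 4 of them among the 45, and leaving out 16Gy replicate 3 gave 11, 10 of them among the 45. There were 27 when 16Gy replicate 2 was left out, 23 of them among the 45, and 70 when 8Gy replicate 1 was, 33 of them among the 45. Leaving out 8Gy replicate 2 or 16Gy replicate 1 gave 46 and 61 genes, of which 34 and 37 were among the 45. ESM1, MMP10, MMP12 and H2BC8 were called whichever 1 of the 6 samples was left out, and each of the other 41 lost its call in at least 1 of these fits. EREG, CCN2, INF2 and SNORD3D kept their call in only 1 of the 6. GREM1, DEFB103A, MMP1, SERPINB4 and PRDM1 were among those that kept it in 2. Without a replicate block EREG, MAFF, ADAMTS1 and PTPRR were not called. With the replicate number fitted as a block within each day, 73 genes were called, which included all 45, and 39 changed further. Genes changed further fell to 2 when 8Gy replicate 3 was dropped, to 5 when 16Gy replicate 3 was and to 12 when 16Gy replicate 2 was. Saturated genes fell to 112 when 8Gy replicate 2 was dropped.

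ESM1 had the largest second step. It encodes endocan, a secreted proteoglycan known from activated endothelium and from vascularised tumours. Its log2 signals were 6.75, 7.0 and 6.76 at 0Gy, 8.29, 8.12 and 7.01 at 8Gy, and 9.43, 9.65 and 9.78 at 16Gy. The 16Gy samples lay more than 1 log2 unit above the highest 8Gy sample, and 8Gy replicate 3 lay near the sham level. ESM1 was 3.51-fold higher at 16Gy than at 8Gy (log2 difference 1.81, SE 0.20, adjusted p = 8.0e-06), after a first step of 0.97 (adjusted p = 0.0024). The SE and p-values come from the spread pooled over the 27 samples, so they do not reflect the wide spread of ESM1 at 8Gy alone. In these bulk samples a change in the share of cells that express a gene cannot be told apart from a change in RNA per cell. Counts in the gene lists from here on stand beside the shares of all genes tested, 0.301% called higher and 0.0974% lower in the second step. In the first step these shares were 2.04% and 1.2%, and between 16Gy and 0Gy they were 4.09% and 3.77%. The lists were chosen with earlier results of these data known. Of the 11 vascular growth factors and endothelial genes tested, ESM1 was called higher and none lower, with a median second step of 0.19. VEGFB, a ligand of the receptor VEGFR1, had 12.57 ± 0.30 (SD, n = 3) at 8Gy and 12.19 ± 0.22 at 16Gy and was not called (adjusted p = 0.33).

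GREM1 and CCN2 were also called higher in the second step, though in only 2 and 1 of the 6 fits that left out a sample. GREM1, a secreted antagonist of bone morphogenetic proteins, had 9.68, 10.09 and 10.07 at 8Gy and 10.75, 10.90 and 11.45 at 16Gy, after 9.05, 9.54 and 8.78 at 0Gy. Its second step of 1.09 (SE 0.26, adjusted p = 0.053) was no smaller than its first of 0.83. CCN2, connective tissue growth factor, had 9.31, 9.69 and 9.68 at 8Gy and 10.07, 10.36 and 10.52 at 16Gy, and was called in the second step (0.76, SE 0.18, adjusted p = 0.062) and not in the first (0.45, adjusted p = 0.16). No sample at 8Gy reached the lowest at 16Gy for either gene. Of 12 genes of the TGF-beta list tested, CCN2 was the 1 called, and the median second step was 0.28. BMP2, a bone morphogenetic protein, missed the threshold, with 7.69 ± 0.06 at 8Gy and 8.24 ± 0.15 at 16Gy (SD, n = 3, adjusted p = 0.12).

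**Figure D2:**
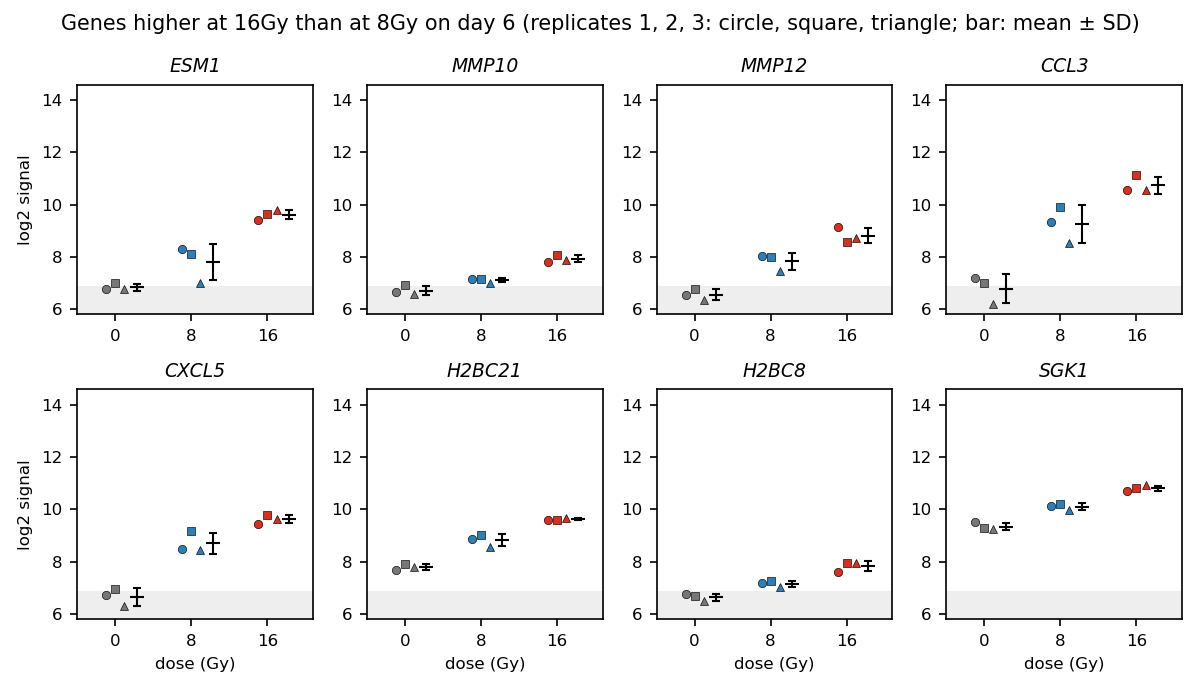
Log2 signal (vertical) by dose in Gy (horizontal) on day 6 for 8 genes called higher at 16Gy than at 8Gy, with replicates 1, 2 and 3 as circle, square and triangle and the mean ± SD as a bar. The grey band lies below the highest background of the 9 samples. In each of the 8 genes the 3 samples at 16Gy lie above the 3 at 8Gy, and replicate 3 at 8Gy is the lowest of its group.

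Among the CC chemokines, which attract monocytes and lymphocytes, CCL3 rose at both steps. CCL3 (MIP-1 alpha) had log2 signals of 7.18, 7.0 and 6.17 at 0Gy, 9.34, 9.93 and 8.51 at 8Gy, and 10.55, 11.12 and 10.57 at 16Gy. Its second step was 1.49 (SE 0.26, adjusted p = 0.0035), or 2.80-fold, after a first step of 2.47. The near copies CCL3L3 and CCL3L1 had second steps of 1.46 and 1.32, and their probes cannot be taken as separate measurements. Of the 7 CC chemokines tested, CCL3 and CCL3L3 were called higher and none lower, against 0.301% and 0.0974% of all genes tested. The median second step of the 7 was 0.58. CCL20, which attracts CCR6-bearing lymphocytes, had 9.03 ± 0.59 at 8Gy and 9.61 ± 0.43 at 16Gy (SD, n = 3), with a second step of 0.58 (adjusted p = 0.27) after a first of 2.30. CCL5, which attracts T cells, had second and first steps of 0.51 (adjusted p = 0.20) and 1.31. CCL2, the main attractant of monocytes, was spread widely at 8Gy, with 10.42, 10.35 and 8.90, and was not called (0.63, adjusted p = 0.43).

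Most CXC chemokines did not pass the test in the second step. CXCL5, a ligand of the neutrophil receptor CXCR2, was the 1 of 6 tested that was called. Its signals were 6.73, 6.96 and 6.29 at 0Gy, 8.50, 9.18 and 8.45 at 8Gy, and 9.46, 9.78 and 9.65 at 16Gy, with a second step of 0.92 (SE 0.18, adjusted p = 0.012) after a first of 2.05. Its 3 dose groups did not overlap. CXCL1 and CXCL2, ligands of the same receptor, had first steps of 1.92 and 2.37, called, and second steps of 0.28 (95% interval -0.19 to 0.76) and 0.26 (-0.46 to 0.98). CXCL8, the neutrophil attractant interleukin 8, had 13.79, 14.59 and 13.69 at 8Gy and 13.46, 14.47 and 13.70 at 16Gy, a difference of -0.15 (95% interval -0.82 to 0.53). These intervals reach past 1.5-fold, so no plateau was shown for the 3 genes.

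Matrix metalloproteinases, secreted or membrane enzymes that cut collagen, elastin and other matrix proteins, were listed with their TIMP inhibitors. Of the 10 genes tested 3 were called higher and none lower, against 0.301% and 0.0974% of all genes tested. MMP10, MMP1, MMP3 and MMP12 lie in 1 cluster on chromosome 11 (GRCh38.p14, 102770502 to 102874982). MMP10 (stromelysin 2, which activates other MMPs) had 7.14, 7.14 and 7.01 at 8Gy and 7.81, 8.09 and 7.89 at 16Gy, with 6.65, 6.92 and 6.56 at 0Gy. Its second step of 0.83 (SE 0.11, adjusted p = 5.3e-05) was 1.78-fold, and its first of 0.39 was under the fold threshold. MMP10 was below background in replicates 1 and 3 at 0Gy, so its first step can be understated. MMP12, the macrophage elastase, had 8.02, 8.01 and 7.45 at 8Gy and 9.14, 8.57 and 8.73 at 16Gy, a second step of 0.99 (SE 0.15, adjusted p = 0.0019). At 0Gy MMP12 was below background in each sample, so it was at least 2.02-fold higher at 8Gy, computed from the group means against background. MMP1, the interstitial collagenase, had 8.22, 7.75 and 7.37 at 8Gy and 9.28, 8.34 and 8.44 at 16Gy (0.90, SE 0.22, adjusted p = 0.053). MMP3 (stromelysin 1) had 13.15, 13.41 and 13.57 at 8Gy and 12.91, 13.93 and 13.65 at 16Gy, a second step of 0.12 (95% interval -0.39 to 0.62) after a first of 2.79. The second step of MMP3 minus its own first was -2.67 (adjusted p = 0.0011), and since the interval reaches past 1.5-fold no plateau was shown. Whether MMP3 differed from its 3 neighbours in the second step was not tested.

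In the IL1 family, 2 of 12 genes tested were called higher in the second step and none lower, and 6 were higher in the first. Of all genes tested, 0.301% were called higher in the second step and 2.04% in the first. IL1F10 (interleukin 38) had 7.46, 7.25 and 6.93 at 8Gy and 7.91, 7.82 and 7.91 at 16Gy (0.67, SE 0.12, adjusted p = 0.0035). IL1RL1, the receptor of interleukin 33, had 7.52, 7.31 and 6.74 at 8Gy and 8.09, 7.67 and 7.85 at 16Gy (0.68, SE 0.15, adjusted p = 0.036). Both genes were below background in each 0Gy sample and remained dim at 16Gy. IL1A, an agonist of the IL1 receptor, had 8.63, 8.67 and 7.85 at 8Gy and 9.26, 9.28 and 8.80 at 16Gy, and missed the threshold (0.73, adjusted p = 0.12), which it passed with the block within each day (adjusted p = 0.013). IL1RN, the secreted antagonist of that receptor, had 9.01 ± 0.32 and 9.40 ± 0.16 (SD, n = 3). Its second step of 0.39 was smaller than its first of 2.31 by 1.92 (adjusted p = 0.014). IL36RN and IL36G, an antagonist and an agonist of the interleukin 36 receptor, had second steps of 0.61 (adjusted p = 0.33) and 0.56 (adjusted p = 0.0034), the latter under the fold threshold.

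Of 10 secreted protease inhibitors and serpins tested, SERPINB4 was called higher in the second step and none lower. SERPINB4, an inhibitor of serine and cysteine proteases whose probe may also read its near copy SERPINB3, had 8.20, 7.41 and 7.57 at 8Gy and 8.44, 8.48 and 8.60 at 16Gy (0.78, SE 0.18, adjusted p = 0.041). SERPINB7, from the same gene cluster, had 9.65 ± 0.28 and 10.41 ± 0.19 (SD, n = 3) and missed the threshold (0.77, adjusted p = 0.16), except with the block within each day (adjusted p = 0.011). TFPI2, an inhibitor of serine proteases also picked by its values, had 10.69, 10.31 and 10.53 at 8Gy and 11.17, 9.62 and 9.64 at 16Gy, where 1 sample lay above and 2 below the whole 8Gy group. DEFB103A, a beta-defensin with an identical copy, DEFB103B, had 8.02, 9.08 and 8.07 at 8Gy and 9.17, 9.83 and 9.34 at 16Gy (1.05, SE 0.23, adjusted p = 0.036).

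Among 13 EGFR ligands, receptors and feedback genes, 1 was called higher in the second step and 8 in the first, of which 5 were saturated. Of all genes tested, 0.301% and 2.04% were called higher in these steps. EREG, the ligand epiregulin, had 8.95, 8.44 and 8.42 at 0Gy, 9.15, 9.44 and 9.04 at 8Gy, and 9.63, 10.38 and 10.00 at 16Gy (0.79, SE 0.19, adjusted p = 0.051). HBEGF, the heparin-binding ligand, ran differently, with 8.42, 8.58 and 8.27, then 10.64, 10.14 and 10.30, then 10.45, 10.04 and 10.44. Its first step was 1.94 and its second -0.05 (95% interval -0.39 to 0.30), and the difference of the steps, -1.98, passed the test (adjusted p = 0.00084). HBEGF was thus saturated at 8Gy while EREG was not, though EREG kept its call in only 1 of the 6 fits that left out a sample. HAS2, a hyaluronan synthase, was the 1 gene called higher of 11 tested for hyaluronan, CD44 and matrix crosslinking, with 7.47, 7.66 and 7.21 at 8Gy and 7.77, 8.40 and 8.40 at 16Gy (0.74, SE 0.16, adjusted p = 0.031). LOX, which crosslinks collagen, had 10.60 ± 0.53 at 8Gy and 11.29 ± 0.53 at 16Gy (SD, n = 3) and was not called (adjusted p = 0.25).

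ATF3, FOSB, MAFF, PRDM1, SGK1, GADD45B and TRIB1, which encode transcription factors, kinases and stress sensors, were among the 34. FOSB, PRDM1, SGK1, GADD45B and TRIB1 were picked from the 34 after their values were seen. ATF3, a stress-induced factor of the ATF/CREB family, had 10.03, 10.22 and 9.49 at 8Gy and 10.65, 11.09 and 10.62 at 16Gy (0.87, SE 0.22, adjusted p = 0.065). It was the 1 gene called of 23 tested for the ATF4 axis, whose median second step was -0.02. FOSB, an AP-1 subunit, rose by 0.71 (adjusted p = 0.041) to 8.78 ± 0.29 (SD, n = 3), and MAFF, a small MAF factor, by 0.59 (adjusted p = 0.074) to 9.99 ± 0.36. PRDM1, a zinc finger repressor, had 7.56, 7.42 and 7.37 at 8Gy and 8.13, 8.18 and 8.23 at 16Gy (0.73, SE 0.16, adjusted p = 0.036), with a first step of 0.20 that was not called. SGK1, a kinase induced by serum and glucocorticoids, had 9.52, 9.28 and 9.24 at 0Gy, 10.11, 10.22 and 9.97 at 8Gy, and 10.71, 10.80 and 10.92 at 16Gy. Its second step of 0.71 (SE 0.13, adjusted p = 0.0094) was nearly its first of 0.76. GADD45B, a stress sensor that acts on p38 and JNK signalling, also had steps of like size, 0.66 and 0.65 (adjusted p = 0.013). TRIB1, a pseudokinase, rose by 0.73 (adjusted p = 0.031). DUSP1, the phosphatase that switches off p38 and JNK, had no such second step, with 11.77, 11.99 and 12.04 at 8Gy and 11.88, 12.24 and 12.00 at 16Gy (0.11, 95% interval -0.16 to 0.38).

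Histone genes of the replication-dependent clusters held 3 genes called higher and none lower of 18 tested, against 0.301% and 0.0974% of all genes tested. The median second step of the 18 was 0.29 after a first of 0.42. These genes are near copies of each other, so the member that a probe reads is uncertain. H2BC21 had 7.68, 7.89 and 7.80 at 0Gy, 8.86, 9.02 and 8.58 at 8Gy, and 9.61, 9.60 and 9.68 at 16Gy (0.81, SE 0.15, adjusted p = 0.0070). H2BC8 had 7.18, 7.26 and 7.03 at 8Gy and 7.62, 7.94 and 7.96 at 16Gy (0.68, SE 0.11, adjusted p = 0.0026), and H4C8 had 7.38, 7.43 and 6.98 and then 7.93, 7.91 and 8.02 (0.69, SE 0.11, adjusted p = 0.0026). H2BC8 and H4C8 were below background in each 0Gy sample. H4C3 lay the other way, with 11.54, 12.21 and 12.56 at 8Gy and 11.15, 11.73 and 11.31 at 16Gy, and was not called (-0.70, adjusted p = 0.23). The remaining genes called higher were KRT33B, SNORD3D, PSG4, FCRLA, MARCKSL1, MAP1A, ADAMTS1 and PTPRR, with second steps of 0.59 to 0.75. SNORD3D and PSG4 have close relatives that their probes may read.

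The 11 genes lower at 16Gy had second steps of -0.60 to -0.88, and 10 of them were not called in the first step. Leaving out 8Gy replicate 3 gave 0 genes called lower, as did leaving out 16Gy replicate 3. The mean of a gene's probes gave 4 called lower. NFIC, a transcription factor of the nuclear factor I family, had 9.96, 10.04 and 9.85 at 0Gy, 9.77, 9.64 and 10.47 at 8Gy, and 9.23, 8.99 and 9.04 at 16Gy. It fell by 0.88 (SE 0.21, adjusted p = 0.052), with replicate 3 the highest at 8Gy. TOX2, an HMG-box factor, fell at both steps, from 11.27, 11.25 and 11.29 to 10.29, 10.24 and 10.48 and then to 9.81, 9.34 and 9.76, by 0.69 in the second (SE 0.14, adjusted p = 0.013). ADAM8, a membrane metalloproteinase, had 7.71, 7.45 and 7.74 at 8Gy and 6.99, 7.05 and 6.83 at 16Gy (-0.68, SE 0.15, adjusted p = 0.036). COL8A1, a short-chain collagen, had 10.88, 11.04 and 11.48 and then 10.26, 10.68 and 10.15 (-0.77, SE 0.18, adjusted p = 0.053), and was the 1 gene called of 26 collagens, laminins and integrins tested. CXXC5, a CXXC zinc finger protein, had 11.69 ± 0.27 at 8Gy and 11.02 ± 0.04 at 16Gy (SD, n = 3, adjusted p = 0.065). CCNY (cyclin Y), CUEDC1, RNF144A, INF2 (a formin), NSMCE4A (a subunit of the SMC5/6 complex) and ZNF385D completed the set. For each of the 11 the 16Gy samples lay below the 8Gy samples, as they did for 7.9% of all genes tested.

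The 6 genes whose second step fell furthest short of the first were PI3, IL1B, IL6, MMP3, PTGS2 and CSF3. PI3, which encodes the elastase inhibitor elafin, had 8.26, 8.87 and 7.10 at 0Gy, 12.74, 13.33 and 12.01 at 8Gy, and 13.07, 13.66 and 13.04 at 16Gy. The steps of PI3 were 4.62 and 0.56, and their difference of -4.06 was the largest of all genes tested (adjusted p = 2.1e-07). IL1B, the secreted agonist of the IL1 receptor, had 10.73, 11.36 and 10.06, then 13.85, 14.34 and 13.74, then 13.74, 14.28 and 14.21. It rose by 3.26 to 8Gy and differed by 0.10 between the doses (95% interval -0.36 to 0.56), within the margin for saturation. The mean of IL1B at 16Gy lay 0.33 log2 units below that of the brightest probe on the array, which was 14.41. CXCL8, MMP3, PI3 and IL6 had means of 13.88, 13.50, 13.25 and 13.07 at 16Gy. Whether the upper end of the array's range limited the second step of any of these genes was not tested. IL11, a cytokine of the IL6 family, lay well below that range, with 7.23, 7.76 and 7.44, then 9.88, 9.10 and 9.25, then 9.42, 9.21 and 9.07. Its steps were 1.93 and -0.18 (95% interval -0.58 to 0.22), and they differed by -2.11 (adjusted p = 0.0011).

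**Figure D3:**
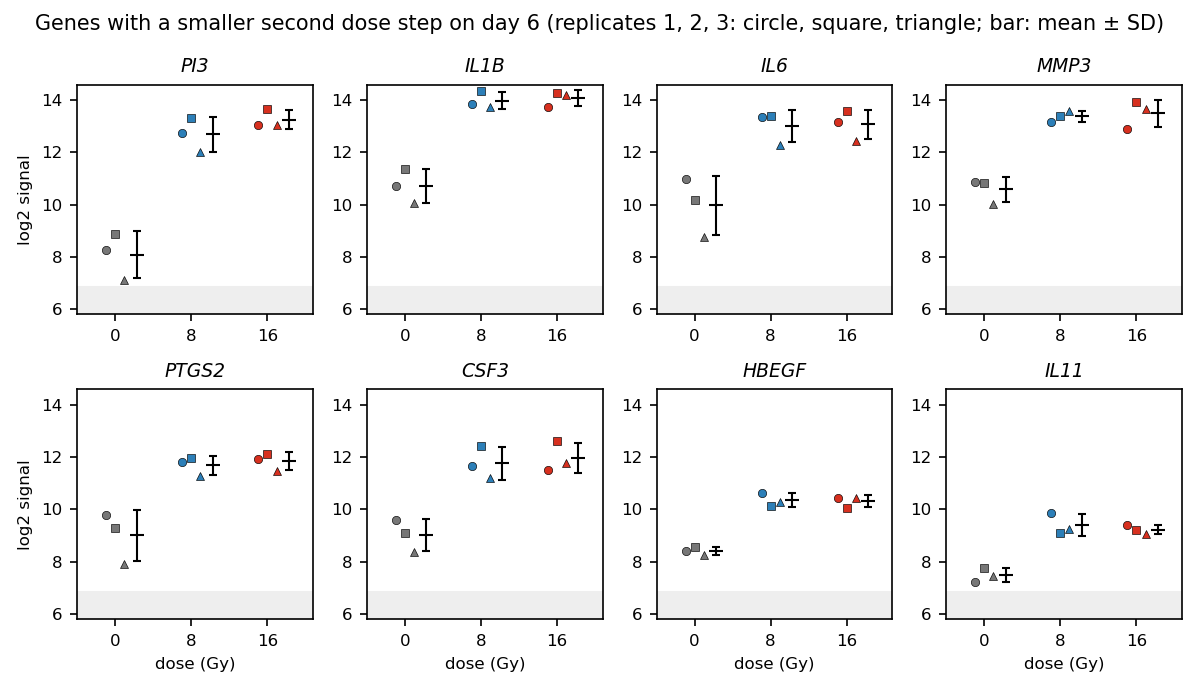
Log2 signal (vertical) by dose in Gy (horizontal) on day 6 for 8 genes whose second step was smaller than the first by the test of their difference, with replicates 1, 2 and 3 as circle, square and triangle and the mean ± SD as a bar. In each gene the ranges at 8Gy and 16Gy overlap and both lie above the range at 0Gy.

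The IL6 family and the colony-stimulating factors had 7 of 12 genes higher in the first step and none called in the second. IL6 had 13.34, 13.39 and 12.28 at 8Gy and 13.17, 13.59 and 12.45 at 16Gy, steps of 3.03 and 0.07, with an interval of -0.67 to 0.80 for the second. LIF, which signals through the same receptor chain, had 9.75, 10.00 and 9.56 and then 9.66, 10.78 and 10.28 (0.48, adjusted p = 0.37). CSF3, the granulocyte colony-stimulating factor, had 11.66, 12.43 and 11.20 and then 11.52, 12.62 and 11.80 (0.21, adjusted p = 0.82). For IL6, LIF and CSF3 the second step was smaller than the first by 2.97, 1.91 and 2.53 (adjusted p = 0.033, 0.014 and 0.042), yet its interval reached past 1.5-fold. PTGS2, the inducible cyclooxygenase, had 11.81, 11.97 and 11.28 and then 11.95, 12.12 and 11.46 (0.15, 95% interval -0.35 to 0.66). PTGES, the synthase that follows PTGS2 in prostaglandin E2 production, was saturated, with steps of 1.61 and 0.02. STC1, a secreted calcium-regulating hormone, was saturated with 12.57 ± 0.12 at 8Gy and 12.61 ± 0.20 at 16Gy (SD, n = 3). MT1G, a metal-binding metallothionein with close copies, and ST3GAL1, a sialyltransferase, were saturated with steps of 1.47 and 0.20, and of 1.67 and 0.09.

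Over all genes, the 2 steps differed for 32 (0.283%), with 26 smaller in the second step (0.23%) and 6 larger (0.0531%). In this contrast the 8Gy samples carry double weight, and dropping their replicates 1, 2 and 3 in turn gave 53, 9 and 13 genes. Dropping 0Gy replicate 2 or 3 gave 20 or 17, and dropping 16Gy replicate 3 gave 21. The block within each day gave 76. No gene that changed further was among the 32. BCL11B, a zinc finger factor, and SLCO4A1, an organic anion transporter, were higher at 8Gy and lay lower at 16Gy. BCL11B had 8.60, 8.70 and 8.56 at 8Gy and 8.36, 8.32 and 7.96 at 16Gy, and the second step of neither gene was called (-0.41, adjusted p = 0.20, and -0.41, adjusted p = 0.33). Both were chosen after their values were seen. Of the 6 genes on the other side, each had a negative first step and a second step above 0, and TSC22D3 (GILZ, a glucocorticoid-induced regulator) had 8.63, 8.89 and 8.66 at 0Gy, 8.38, 8.11 and 7.63 at 8Gy, and 8.53, 8.53 and 8.32 at 16Gy. RETREG3, an ER-phagy receptor, had 7.28 ± 0.13, 6.88 ± 0.11 and 7.29 ± 0.12 (SD, n = 3), with a second step of 0.41 (adjusted p = 0.045) that was under the fold threshold.

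Saturated falls included enzymes of NADPH and redox metabolism. IDH1, the cytosolic isocitrate dehydrogenase, had a mean of 11.27 ± 0.23 (SD, n = 3) at 0Gy, and signals of 10.67, 9.77 and 9.72 at 8Gy and 10.59, 9.83 and 9.96 at 16Gy, so the 2 irradiated groups overlapped. TKT, the transketolase of the pentose phosphate pathway, had 12.11, 12.32 and 12.50, then 11.60, 11.21 and 11.39, then 11.04, 11.04 and 11.24. Its second step was -0.29 (95% interval -0.58 to -0.01), so its fall went on within the margin. AKR1C3, an aldo-keto reductase with close relatives, PIR, an iron-binding nuclear protein, PCOLCE, an enhancer of collagen processing, and EFEMP1, a fibulin, had first steps of -1.0 to -1.10 and second steps of -0.24 to 0.14. Of 15 NRF2 targets tested, 6 were lower in the first step, 4 of those were saturated, and none was called in the second. HMOX1, heme oxygenase 1, stood apart in that list, with 10.01, 10.60 and 10.05 at 8Gy and 10.77, 11.28 and 11.07 at 16Gy, and missed the threshold (0.82, adjusted p = 0.14), which it passed with the block within each day (adjusted p = 0.071).

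In the lists of cholesterol and fatty acid synthesis some genes were lower in the first step and none was called between the doses. Of 18 genes of cholesterol synthesis 6 were lower in the first step and 9 between 16Gy and 0Gy, against 1.2% and 3.77% of all genes tested. The 18 had medians of -0.44 for the first step and -0.12 for the second. Of 11 genes of fatty acid synthesis 6 were lower in the first step, with medians of -0.69 and -0.21. SCD, the stearoyl-CoA desaturase, had 13.27, 13.93 and 13.54 at 0Gy, 11.99, 11.02 and 11.25 at 8Gy, and 11.64, 10.90 and 10.20 at 16Gy (second step -0.51, 95% interval -1.12 to 0.11). FASN, the fatty acid synthase, had 11.46, 11.24 and 11.62 at 8Gy and 10.89, 10.95 and 10.63 at 16Gy, with no overlap, and missed the threshold (-0.61, adjusted p = 0.22).

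In growth arrest and damage lists no gene was called between the doses. Of 27 p53 targets tested, 2 were higher in the first step and 7 between 16Gy and 0Gy, with medians of 0.11 for the first step and 0.13 for the second. CDKN1A, the CDK inhibitor p21, had 12.60, 12.61 and 12.55 at 0Gy, 12.97, 13.05 and 13.08 at 8Gy, and 13.14, 13.58 and 13.39 at 16Gy. On the log2 scale 42.7% of its rise came after 8Gy, and its second step was not called (0.34, adjusted p = 0.25). TP53INP1 and RRM2B, both p53 targets, had second steps of 0.58 and 0.57 (adjusted p = 0.14 for each) with no overlap of the doses. Of 46 mitosis genes, 3 were lower in the first step and 10 between 16Gy and 0Gy, and 7 of 46 had a second step above 0, with a median of -0.17. On day 4, 30 of the 46 had a difference above 0 between the same doses, with a median of 0.06. ASPM, a spindle pole protein, had 8.67, 8.49 and 9.13 at 8Gy and 7.95, 7.87 and 8.13 at 16Gy (-0.78, adjusted p = 0.11). Of 40 DNA replication genes 3 were lower between 16Gy and 0Gy and none in either step, and of 26 hypoxia and glycolysis genes 10 were higher between 16Gy and 0Gy, 5 of 26 in the first step. With the replicate block within each day, ASPM and CENPF, a kinetochore protein, were called lower (adjusted p = 0.0020 and 0.042). The hypoxia list had a median second step of 0.22, with 23 of 26 above 0. These medians are descriptions beside an all-gene median of -0.0015. Among all genes tested, 5611 of 11296 had a second step above 0, and 44.5% had a difference above 0 on day 4. Between 16Gy and 0Gy, 4.09% of all genes tested were called higher and 3.77% lower.

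**Figure D4:**
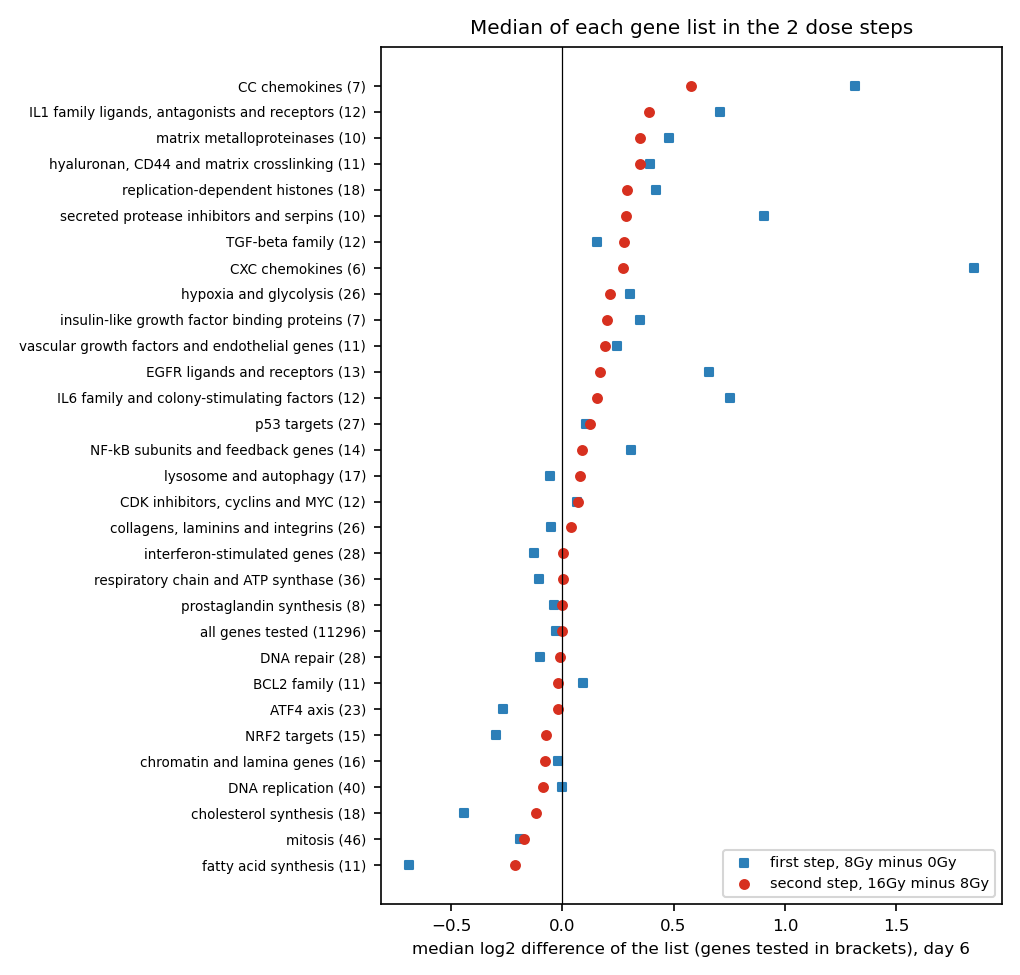
Median log2 difference on day 6 (horizontal) of each gene list (vertical, genes tested in brackets) in the first step, 8Gy minus 0Gy, and the second step, 16Gy minus 8Gy. CXC chemokines have medians of 1.85 and 0.27, while mitosis genes have -0.19 and -0.17 and all genes tested lie close to 0.

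Promoter sequences are shown for a pair of genes with each of 2 motifs, 1 of the pair called higher at 16Gy and the other not. They were picked because factors that bind these motifs commonly drive such a secreted programme, though factor activity was not measured here. They are from RefSeq (GRCh38.p14), 5′ to 3′ on the strand of the gene, with the motif in capitals and 30 bases to either side. For MMP10 (chr11:102780659-102780725, minus strand) and IL11 (chr19:55370523-55370589, minus strand) the capitals mark an AP-1 motif, TGANTCA, and for CXCL5 (chr4:73998728-73998798, minus strand) and IL6 (chr7:22727097-22727166, plus strand) an NF-kB motif, in CXCL5 2 overlapping matches.
MMP10: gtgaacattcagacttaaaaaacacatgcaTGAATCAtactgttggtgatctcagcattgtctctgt
IL11: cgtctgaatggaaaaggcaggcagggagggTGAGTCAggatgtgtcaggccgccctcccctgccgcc
CXCL5: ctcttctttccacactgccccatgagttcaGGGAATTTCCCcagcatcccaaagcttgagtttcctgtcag
IL6: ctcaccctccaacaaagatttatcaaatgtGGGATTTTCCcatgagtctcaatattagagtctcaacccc

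Both strands of the window from 250 bases before to 50 after each start were searched, over 9131 of the 11296 genes tested, with overlaps between motifs allowed. The NF-kB motif was in 7 of the 26 genes called higher that had a promoter sequence (26.9%), in 15 of 67 saturated rises (22.4%), in 2 of 9 genes called lower (22.2%), in 11 of 69 saturated falls (15.9%) and in 16.9% of the 9131. The AP-1 motif was in 3 of the 26 (11.5%), in 14 of the 67 (20.9%), in 1 of 9 genes called lower (11.1%), in 10 of 69 saturated falls (14.5%) and in 7.55% of the 9131. A CRE motif, TGACGTCA (the cyclic AMP response element), was in 2 of the 26 and a CArG box in 1 of the 26, against 3.94% and 1.62% of the 9131. A match describes the letters of the window and is not evidence of binding.

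The same contrast on day 4, which uses other samples, called 2 genes (0.0177%), CCL3L3 and MMP12, with 560 at an unadjusted p under 0.05. Of the 34 genes higher at 16Gy on day 6, 31 were also higher on day 4, where 44.5% of all genes tested were, and 33 of 34 differed less on day 4. The genes were chosen for their day 6 difference, so smaller differences on other days can come from that choice alone. Day 1 had 22 of the 34 higher (48.9% of all genes tested) and day 35 had 24 (51.1%). Their median difference of 0.74 was 0.44 on day 4, and 0.03 both on day 1 and on day 35. Of the 11 lower genes, 11 were lower on day 4 (55.5% of all genes tested), 9 on day 1 (51.1%) and 3 on day 35 (48.9%). Their median of -0.68 on day 6 compares with -0.32 (day 4), -0.13 (day 1) and 0.19 (day 35). ESM1 differed by 0.74 on day 4 and 0.03 on day 1, CCL3 by 1.16 and -0.01, while MMP10 differed by 0.57 on day 4 and by close to 0 on day 1. SGK1 differed by 0.12 on day 4, and EREG and TRIB1 by close to 0. No gene was called on day 1, where 394 had an unadjusted p under 0.05, nor on day 35, where 523 had. With the block within each day 12 genes were called on day 4. The 2 calls of day 4 were lost when 8Gy or 16Gy replicate 3 of that day was left out, and 4 to 7 genes were called when 8Gy replicate 1 or 2 or 16Gy replicate 1 was.

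The change of the dose difference from day 4 to day 6 was called for no gene in limma (484 at an unadjusted p under 0.05), so none of these genes was shown to differ more on day 6 than on day 4. The change from day 1 to day 6, a contrast chosen after the values were seen, was called for ESM1 (1.78, adjusted p = 0.0091) and MMP10 (0.83, adjusted p = 0.027), 0.0177% of the genes tested. Leaving out each of the 12 samples in turn kept the call of ESM1 (adjusted p 0.00032 to 0.091), while MMP10 was called in 6 of 12 (0.011 to 0.27).

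**Figure D5:**
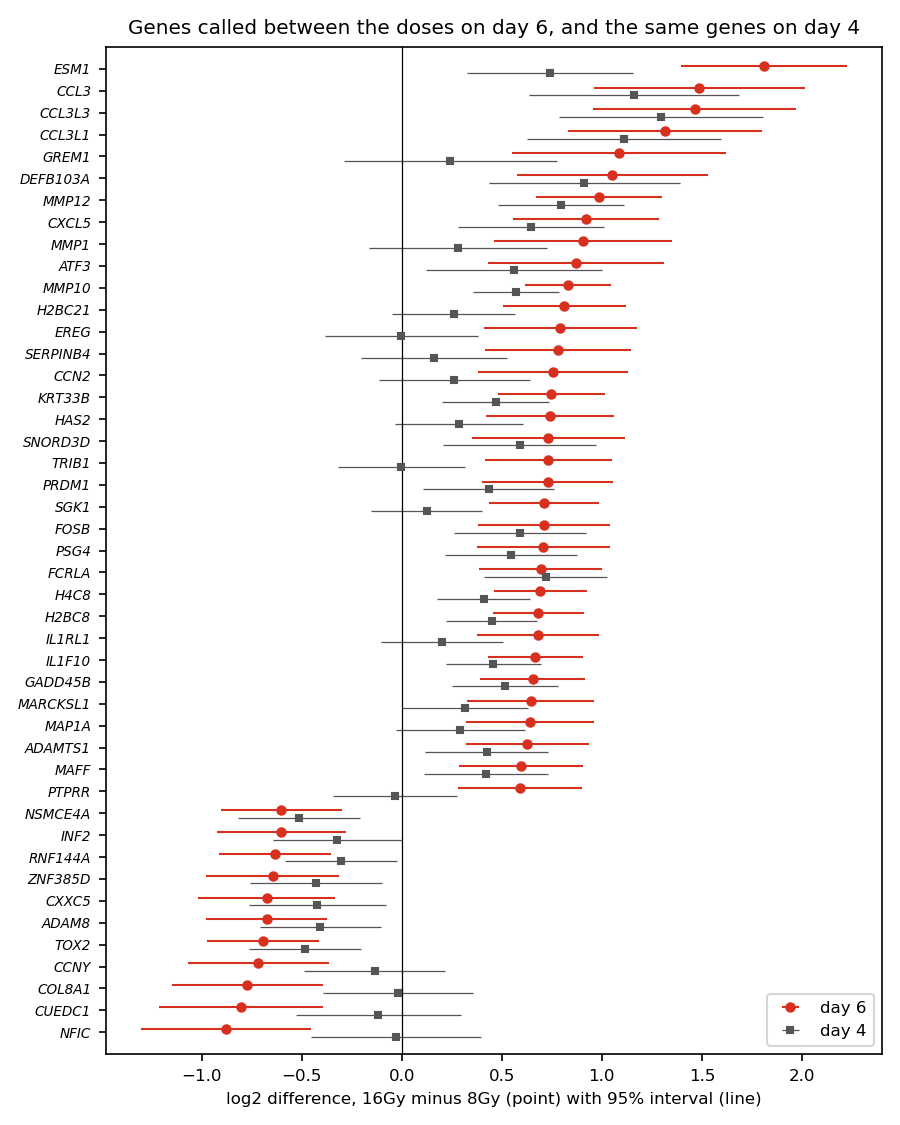
Log2 difference between 16Gy and 8Gy (horizontal, points, with the 95% interval as a line) on day 6 (circles) and day 4 (squares) for each of the 45 genes called on day 6 (vertical). CCL3, CCL3L3 and MMP12 lie well above 0 on both days, whereas EREG, TRIB1, NFIC and COL8A1 lie close to 0 on day 4.

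Choosing genes on day 4 removes the shared samples from the comparison of the 2 steps. Of 168 genes called higher at 8Gy against 0Gy on day 4, a choice also made after the values were seen, 19 were called higher at 16Gy than at 8Gy on day 6, as were 0.301% of all genes tested, and none lower. For 44 of the 168 the interval of the second step lay within 1.5-fold, against 84.7% of all genes tested, and the median second step was 0.34. Of 34 genes called lower on day 4, 2 were called lower in the second step on day 6, none higher, 11 lay within the margin, and the median was -0.32.

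Near the thresholds, PTPRR, MAFF and INF2 were just inside, with differences of 0.59 (adjusted p = 0.081), 0.59 (0.074) and -0.60 (0.089). SRGN, TBC1D15 and RNF13 were just outside, with 0.65 (adjusted p = 0.11), 0.63 (0.11) and 0.59 (0.11). With the block within each day these 3 were called (adjusted p = 0.011, 0.053 and 0.044), as were IL24 (0.61, adjusted p = 0.028), IGFBP3 (0.80, adjusted p = 0.083) and DDIT3 (0.65, adjusted p = 0.035), a cytokine, a binding protein of insulin-like growth factors and a stress-induced transcription factor. SRGN, the proteoglycan serglycin, had 12.31, 12.19 and 11.64 at 8Gy and 12.72, 12.69 and 12.67 at 16Gy. Of the 37 genes that the study names for these arrays, 7 were higher in the second step and 25 in the first, and since they were chosen on the same samples this is not independent evidence of a direction.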

How the data were processed

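RNA of U87-MG cells was hybridised to Illumina HumanHT-12 v4 bead arrays. The authors exported signals with GenomeStudio, quantile normalised them and took log2, with the 12 samples of day 35 handled apart from the 27 of days 1 to 6, and adjusted the latter with ComBat (the batches are not named). The deposited log2 values of 47300 probes were used. In the table of unnormalised signals, 96 columns of 48 arrays matched no sample label and were not used.

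The brightest of a gene's probes was taken, with symbols updated from the RefSeq annotation (30100 probes name 1 gene, 8 several and 17192 none). A gene was tested when, in every sample of at least 1 of 12 groups, a share under 0.05 of 455 olfactory receptor probes was as bright. Linear models (limma 3.58.1, R 4.3.3, data.table version 1.17.8) were fitted to the 27 samples with terms for group and replicate number, and variances were moderated along a mean-variance trend, and Benjamini-Hochberg adjusted p-values were taken over the 11296 genes. The fit was tested on simulated data. Deviations of same-numbered samples at 8Gy and 16Gy on day 6 correlated at 0.576, 0.457 and 0.143. No pair of day 6 groups was under 0.1, so the numbers were taken to pair. The term is shared by all 27 samples, and pairing was less clear on the other days. On day 4 the 0Gy and 16Gy deviations correlated at -0.579, -0.156 and -0.175. For replicate 1 of day 1 those of 8Gy and 16Gy correlated at -0.171. The remaining correlations of days 1 and 4 were 0 or above. The labels state that shams ran in parallel with each replicate. ComBat and separate normalisation can alter differences between samples, and day 35 was fitted alone. Arrays give no read depth, so their number limits precision.

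The genes named were the 15 with the largest second step upwards and the 11 downwards, the 8 largest saturated rises and 6 falls, up to 6 with unequal steps in each direction, the called members and the 2 of largest difference in each list, the study's own list, and the 3 just inside and just outside the threshold. Other genes named were chosen after their values were seen. The members and lists were chosen with earlier results of these data known. Alternatives covered the block, filter, probe rule, scaling, variance model, thresholds and leaving out each sample.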

Additional observations from a re-analysis of the deposited data

Results flagged for a closer look

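The dose difference changed from day 1 to day 6 for ESM1 by 1.78 log2 and for MMP10 by 0.83, by the test of the change itself, in a contrast chosen after the values were seen.

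On day 35, where each group has 4 samples, 1 sample lay far from the others, relative to their spread, for 8 genes, in 8 of 52 groups tested. The groups are genes read on the same arrays and are not independent, so this count was not set against a chance rate. ESM1 was at 7.83 in 16Gy replicate 1, with 6.83 to 6.96 in the others, MMP1 at 8.41 in that sample (6.86 to 6.89) and CXCL5 at 6.93 (6.76 to 6.78). In 16Gy replicate 4, CUEDC1 was at 11.67 (9.99 to 10.14), INF2 at 12.82 (11.42 to 11.58) and ATF3 at 7.45 (7.87 to 7.95). At 8Gy, CCNY was at 9.20 in replicate 4 (10.77 to 10.96) and CCL3L3 at 7.07 in replicate 2 (6.86 to 6.88). Background reached 6.90 in the series, near the signals of CXCL5 and CCL3L3.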

How the results depend on the processing

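Among the genes named by the rules above, no called day 6 difference changed direction under the alternatives run. The direction of the other called genes, such as SGK1, FOSB, TRIB1, GADD45B and PRDM1, was not followed. The counts of genes called between the doses on day 6, changed further, saturated and with unequal steps were 45, 24, 172 and 32. Genes called, changed further and with unequal steps numbered 73, 39 and 76 with the replicate block within each day, 97, 43 and 122 on the day 6 samples alone with the block, and 26, 13 and 11 on those samples without it. Without a block in the fit of all days, unequal steps fell to 17. Without a mean-variance trend these 3 counts were 26, 15 and 21. With a fold over 2 instead, 6 genes were called, 4 changed further and 23 were saturated, and with an adjusted p under 0.05, 26 were called and 21 had unequal steps. The mean of a gene's probes gave 29 genes called, and limma's treat at a fold of 1.2 gave 5. A saturation margin of 1.3-fold gave 47 saturated genes and 1 of 2-fold 316. Leaving out 1 sample gave 4 to 70 genes called, 2 to 29 changed further, 112 to 249 saturated and 9 to 53 with unequal steps.

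On day 4 the 2 genes called became 12 with the block within each day, 0 without a block, 4 without a filter, 1 with the mean of probes, 5 with quantile normalisation repeated, 0 without the trend, 1 with robust moderation, 1 with a fold over 2, 0 with an adjusted p under 0.05, and 0 to 7 when 1 sample was left out. Other alternatives kept each count within 1.5 times. The cause of each change was not tested, apart from stricter thresholds and fewer samples. With 3 samples a group, the median 95% interval of a second step was 0.274 log2 to either side, and 9564 genes had an interval within 1.5-fold.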
